A study of Mus musculus with 8 samples.

Results

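The genes described here carry sugar to pyruvate and lactate in the testis, in the forms made by germ cells and the forms made by most other cells. They were taken by symbol from a list of 34 glycolytic, transport and pyruvate-handling genes. All 34 had a row among the 17121 genes of the table, and all 34 passed the filter on low values that left 17066 genes for testing (4 or more libraries at 25 or above). The list names 8 of them as germ cell isoforms: Pgk2, Ldhc, Gapdhs, Aldoart1, Pgam2, Eno4, Pdha2 and Gk2. The other class, called somatic isoforms here, held 25 members. Some of these, such as the transporters, Dlat, Pdhb and Sord, have no germ cell isoform among the members. Germ cells may also express members of this class, as they do Slc2a3, so it is not a measure of somatic cells. Aldoart2, an aldolase retrogene that the list leaves out of its germ cell isoforms, was kept apart from both classes.

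RNA was sequenced from mouse testis in 8 libraries, 4 of genotype CTL and 4 of genotype N6amt1-SKO, here CTL 1 to 4 and SKO 1 to 4. N6amt1 encodes a methyltransferase, and the study asked what its loss does to spermatogenesis. The labels do not spell out SKO, and the promoter of any Cre, the strain, the age and what the CTL mice carry are not given in the sources used here. Nothing states that each library is a separate animal, so the p-values speak only of how much these libraries vary, part of which may be technical.

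The tissue is labelled testis, but the protocol for RNA extraction speaks of heart ventricles. The libraries held testis transcripts: 16 of 16 spermatid markers were present, led by Tnp2 and Akap4, whereas 8 of 11 heart and skeletal muscle markers had no row and the 3 others summed to 704 to 2358 per library. N6amt1 itself had values of 433 to 629 in CTL and 557 to 625 in SKO, with a log2 fold change of 0.19 ± 0.17 (SE) and a limma adjusted p of 0.437. The targeted part of the gene is not given, so this whole-gene value does not check the labels. The column totals ran from 94183701 to 103106684. In 6 libraries the values were whole reads multiplied by 1 factor, which puts the reads counted to genes of the table at 40.6 to 70.1 M. Reads not counted to these genes are not in that number. No such factor above 1 was found for CTL 1 and CTL 2, and a factor of 1 or below could not have been found. The share of 18S ribosomal RNA was 0.721% to 0.969% in CTL 3, CTL 4 and SKO 4 and 0.173% to 0.273% in the 5 others. The mitochondrially encoded share was 1.13% to 1.99% in CTL and 2.11% to 4.53% in SKO, and its part in the results was not tested.

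Glycolysis converts glucose to pyruvate, which either becomes lactate or enters the mitochondrion and is oxidised by the pyruvate dehydrogenase complex. Sertoli cells, the somatic nurse cells of the seminiferous tubule, take up glucose and pass lactate through monocarboxylate transporters to the germ cells around them. Spermatocytes and spermatids switch to isoforms encoded by their own genes. Several of these are retrogenes, intronless copies of a parent gene made through its mRNA, and Pgk2 and Pdha2 have parents on the X chromosome, which is silenced during meiosis. In the sperm tail, glycolytic enzymes bound to the fibrous sheath supply ATP for swimming.

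The first 60 coding bases of a retrogene and of its parent are shown for Pgk2 and Pgk1 and for Aldoart1 and Aldoa, since reads of the first pair can be told apart along the gene while the second pair is nearly identical in places. Capitals mark the bases at which the members of a pair differ, 20 in the phosphoglycerate kinases and 6 in the aldolases.

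Pgk2: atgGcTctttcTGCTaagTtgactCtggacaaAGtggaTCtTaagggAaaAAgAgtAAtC
Pgk1: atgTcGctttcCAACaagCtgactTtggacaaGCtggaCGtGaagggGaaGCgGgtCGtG
Aldoart1: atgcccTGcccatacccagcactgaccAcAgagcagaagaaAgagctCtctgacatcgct
Aldoa: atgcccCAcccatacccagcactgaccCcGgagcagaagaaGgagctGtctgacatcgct

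Over the aligned coding sequence Pgk2 was 79.3% identical to Pgk1, and the longest run without a difference was 22 bases. Aldoart1 was 94.2% identical to Aldoa, with an identical run of 86 bases, so reads of these 2 genes can be shared and their values are uncertain. Aldoart2 was 91.7% identical to Aldoa.

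The X-linked parents and their autosomal retrogenes also differ just upstream of the gene. The stretches below are those of RefSeq on GRCm38.p6, up to 250 bases before the start and outside the annotated gene, and capitals mark GGGCGG (or CCGCCC, the same letters on the other strand), CCAAT and TATAAA.

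Pgk1 chrX:106186850-106187099 (+): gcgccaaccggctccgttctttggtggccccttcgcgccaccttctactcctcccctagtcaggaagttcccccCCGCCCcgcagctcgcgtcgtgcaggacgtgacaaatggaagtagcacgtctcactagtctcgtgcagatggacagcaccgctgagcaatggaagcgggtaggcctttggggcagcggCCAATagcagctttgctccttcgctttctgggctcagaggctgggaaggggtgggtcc
Pgk2 chr17:40208641-40208859 (-): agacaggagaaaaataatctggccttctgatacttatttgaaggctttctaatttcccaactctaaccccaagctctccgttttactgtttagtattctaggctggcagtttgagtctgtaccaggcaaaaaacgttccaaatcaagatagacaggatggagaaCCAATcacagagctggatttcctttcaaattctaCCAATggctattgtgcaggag
Pdha1 chrX:160138431-160138680 (-): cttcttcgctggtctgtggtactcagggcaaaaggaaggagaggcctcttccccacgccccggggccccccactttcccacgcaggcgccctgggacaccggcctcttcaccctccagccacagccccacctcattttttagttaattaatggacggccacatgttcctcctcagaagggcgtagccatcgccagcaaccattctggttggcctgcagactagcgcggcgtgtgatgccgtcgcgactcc
Pdha2 chr3:141212356-141212605 (-): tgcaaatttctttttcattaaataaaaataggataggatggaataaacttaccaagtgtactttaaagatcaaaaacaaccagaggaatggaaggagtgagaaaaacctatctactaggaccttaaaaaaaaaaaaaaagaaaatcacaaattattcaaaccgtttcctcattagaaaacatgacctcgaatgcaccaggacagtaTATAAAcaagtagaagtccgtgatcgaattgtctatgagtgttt

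Of the 34 members, 31 had a promoter entry. GGGCGG, the letters of a GC box, were searched on both strands in windows of 300 bases, from 250 before to 50 after the start, and were held by 18 of 23 matched somatic members and 1 of 7 matched germ cell members. By comparison, 35.7% of all 32851 windows in the table held them; a gene with several starts was counted if any of its windows did. CCAAT was held by 2 of 7 germ cell members, 9 of 23 somatic members and 37.4% of all windows. TATAAA was held by 1 of 7, 1 of 23 and 13.6%, and the Pdha1 stretch printed here holds none of these letters. The match is of letters and shows no bound factor.

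14 of the 34 members passed the test between the genotypes, 41.2% of them, where 19.9% of all genes tested passed (limma on log2 of the normalised value plus 5, Benjamini-Hochberg adjusted p below 0.05, two-sided). 6 members rose in SKO and 8 fell; over all genes 11.9% rose and 7.93% fell. The 8 germ cell isoforms held 0 that rose, 3 that fell and 5 that did not pass, with a median log2 fold change of -0.37. Among the 25 somatic isoforms 6 rose, 5 fell and 14 did not pass, with a median of 0.29, beside 0.04 over all genes tested. The 4 libraries of each genotype did not overlap for 14 members, 6 higher and 8 lower in SKO, where 26.1% of all genes tested did not overlap.

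**Figure D1:**
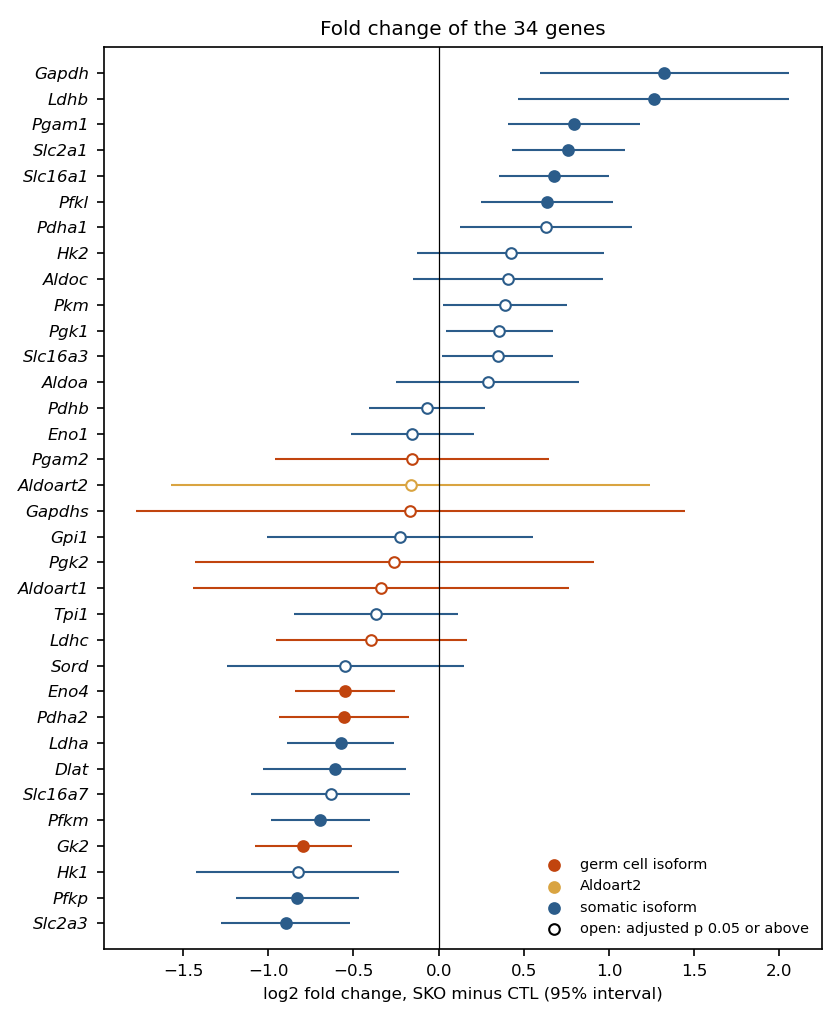
Log2 fold change (x axis, SKO minus CTL) of each of the 34 members with its 95% interval, coloured by class; filled points passed the test and open points did not. The 3 germ cell isoforms that passed lie below 0, and the somatic isoforms that passed lie on both sides.

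These counts rest on few libraries. Without SKO 3 no gene of the table passed in limma, and so 0 members did; the smallest adjusted p was 0.0567, 4788 genes had an unadjusted p under 0.05, and no other tool was run. Leaving out CTL 3 left 1 member that rose and 6 that fell. Leaving out SKO 1 left 2 and 4, and leaving out SKO 2 left 3 and 4. Without CTL 1 and CTL 2 together they numbered 7 and 7, and the median of the germ cell isoforms was 0.20. Leaving out 1 library moved that median between -0.15 (without CTL 2) and -0.65 (without CTL 4), and library totals gave -0.077. The 14 members that passed kept their direction in each of the 21 alternatives run, and each passed in 10 to 20 of them. With SKO 3 kept, 5 members passed whichever other library was left out: Slc2a3, Pfkp, Gk2, Pfkm and Slc2a1. Slc16a1 no longer passed without CTL 3, Gapdh without CTL 3 or SKO 1, and Pgam1 without CTL 3, SKO 1 or SKO 2. Ldhb no longer passed without CTL 3, CTL 4, SKO 1 or SKO 2, and Eno4 and Ldha without SKO 1 or SKO 2. Scaling to library totals moved the median of all genes to 0.33, 11 members then rose and 4 fell, and 91.5% of all calls were of genes that rose, against 60.1% with TMM factors and 49.2% with median-ratio factors. Within the 5 libraries with a lower 18S share the median of the somatic isoforms was -0.07, and 7 members rose and 13 fell.

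The germ cell isoforms that fell were Gk2, Eno4 and Pdha2. Gk2 at chr5:97455142-97457021 is a single-exon gene of the glycerol kinase family, expressed in testis. Its normalised values were 71332, 79666, 78218 and 90256 across CTL 1 to 4, against 45940.2, 43929, 45218 and 48535 across SKO 1 to 4. The groups did not overlap and each SKO library was below each CTL library, with a log2 fold change of -0.79 ± 0.13 (SE), adjusted p = 0.0123. Eno4, an enolase of the sperm tail, had values of 6105, 6663, 5734 and 4971 across CTL 1 to 4, against 4318, 3968, 3781 and 3914 across SKO 1 to 4. Again the groups did not overlap, with a log2 fold change of -0.55 ± 0.13 (SE), adjusted p = 0.0225. Pdha2 at chr3:141210004-141212355, the autosomal E1 alpha subunit of pyruvate dehydrogenase in germ cells, had values of 20991, 21896, 27768 and 22551 across CTL 1 to 4, against 13885, 13666, 15549 and 21004 across SKO 1 to 4. SKO 4 lay within the CTL range, just above CTL 1, and the fold change was -0.55 ± 0.17 (SE), adjusted p = 0.0475. The Pdha2 call is a weak one: it passed in 1 of the 8 fits that leave out a library, and missed with upper quartile factors (adjusted p = 0.0569), 1 prior variance for all genes (0.0632) and library totals (0.215). The Eno4 call was lost with library totals (adjusted p = 0.231) and without CTL 1 and CTL 2 (0.0591). Eno4 shares 6.46% of its exon length with Hspa12a, and reads in that overlap cannot be told apart if the counting ignored strand.

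Beside these falls, the summed value of 15 pachytene spermatocyte markers, led by Hspa2 and Ybx3, was 876756 to 1109772 in CTL and 668809 to 769929 in SKO, without overlap. Of these markers 7 fell, none rose and 8 did not pass, while 7.93% of all genes tested fell. Ybx3 was among those that did not pass, with a log2 fold change of -0.22 (limma adjusted p = 0.592). In whole testis a smaller number of cells of a type and less RNA per cell cannot be told apart, and the part of these markers in the falls of Gk2, Eno4, Pdha2 and the 5 somatic members described further on was not tested.

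The other 5 germ cell isoforms and Aldoart2 differed more between libraries of 1 genotype than between genotypes. Gapdhs, the glyceraldehyde 3-phosphate dehydrogenase of the sperm tail, had values of 37582, 50286, 12414 and 4499.8 across CTL 1 to 4, against 37512, 14693, 12513 and 9679.9 across SKO 1 to 4. Within CTL the highest library was 11.2 times the lowest, and within SKO 3.88 times, so the fold change of -0.17 (adjusted p = 0.896) did not stand out from that spread. Pgk2 at chr17:40207015-40208640, the phosphoglycerate kinase of meiotic and later germ cells, had values of 51715, 61538, 15506 and 14246 across CTL 1 to 4, against 43110.3, 25382, 22235 and 14015 across SKO 1 to 4, a 4.32-fold range within CTL. Pgam2, a phosphoglycerate mutase of muscle and germ cells, had values of 58396, 57399, 28647 and 19702 across CTL 1 to 4, against 47559, 24233, 33106 and 32051 across SKO 1 to 4. CTL 1, CTL 2 and SKO 1 were its highest libraries, as they were for Gapdhs and Pgk2. Ldhc at chr7:46861203-46878142, the lactate dehydrogenase subunit of germ cells and sperm, had values of 341767, 370925, 211518 and 185922 across CTL 1 to 4, against 255784, 191894, 196706 and 173036 across SKO 1 to 4. Its range within CTL was 1.995-fold, the narrowest of these genes, and its fold change of -0.39 did not pass (adjusted p = 0.285). Aldoart1 and Aldoart2 encode aldolases of sperm, and ranged within CTL over 5.13-fold and 8.22-fold, with fold changes of -0.34 and -0.16 (adjusted p = 0.658 and 0.879).

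The same 3 libraries had the highest values in 16 of 16 spermatid markers, whose sum was 622402, 780427, 264090 and 93592 across CTL 1 to 4, against 648698, 201266, 188537 and 171988 across SKO 1 to 4. That pattern, chosen after the values were seen, was held by 11 of the 34 members and by 12.9% of all genes tested. 5 of the 8 germ cell isoforms held it, with Aldoart2 and 5 of 25 somatic isoforms (Gpi1, Aldoa, Tpi1, Eno1 and Sord). No spermatid marker passed the test, and their median log2 fold change was -0.14. The signs of these fold changes depend on the setting: Gapdhs, Pgk2, Pgam2 and Aldoart2 turned above 0 with library totals, by 0.13, 0.03, 0.13 and 0.13, and without CTL 1 and CTL 2, by 1.05, 0.65, 0.43 and 0.90. Aldoart1 turned to 0.42 without those libraries.

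**Figure D2:**
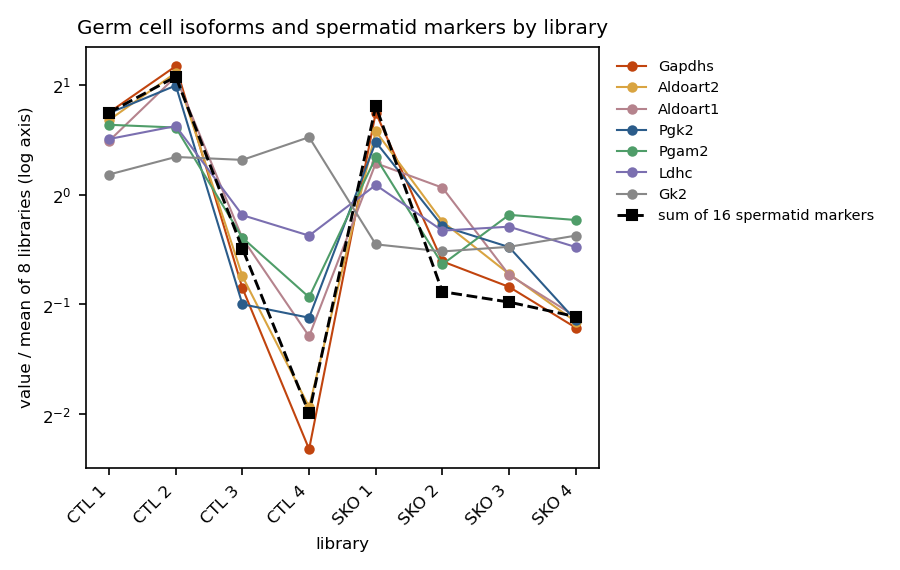
Value of 6 germ cell isoforms and Aldoart2 in each of the 8 libraries, divided by the mean of the 8 libraries (log axis), with the summed value of 16 spermatid markers as a dashed line. Gapdhs, Pgk2, Pgam2, Ldhc, Aldoart1 and Aldoart2 are highest in CTL 1, CTL 2 and SKO 1, as the marker sum is, while Gk2 separates the genotypes.

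**Figure D3:**
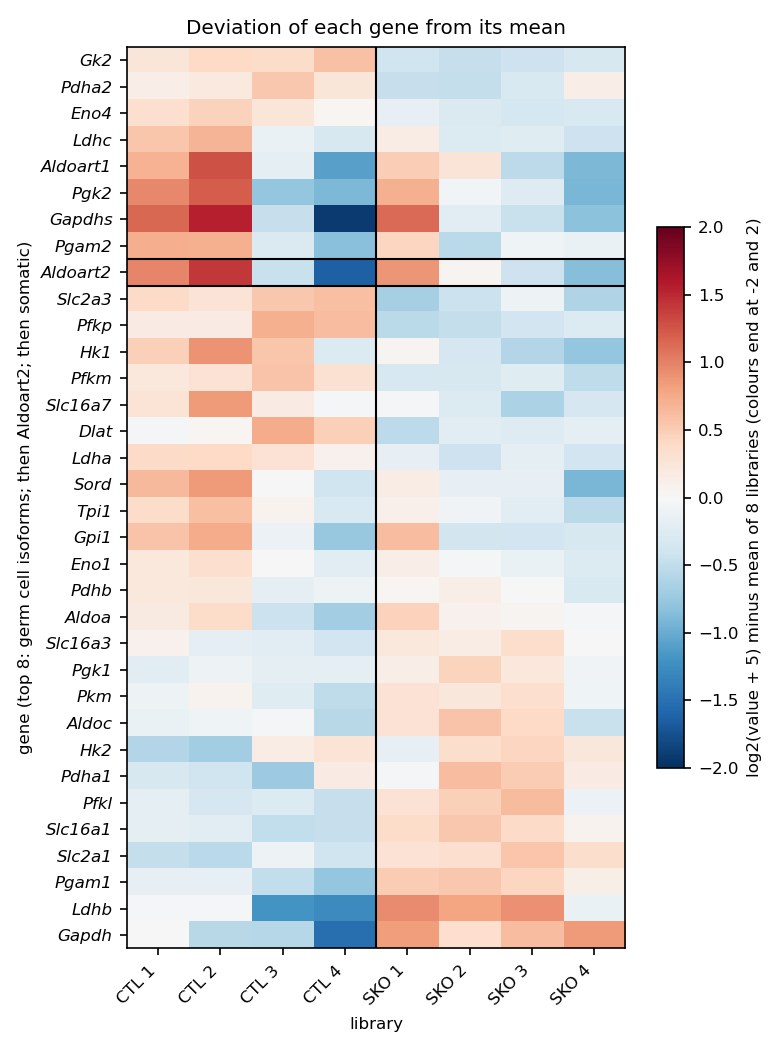
Each of the 34 members (rows) in each of the 8 libraries (columns), coloured by log2(value + 5) minus the mean of the 8 libraries; colours end at -2 and 2, and lines set off the germ cell isoforms, Aldoart2 and the somatic isoforms. Slc2a3, Pfkp, Pfkm and Gk2 are higher in all CTL libraries, Pgam1, Slc2a1 and Slc16a1 in all SKO libraries, and Gapdhs and Aldoart2 differ most between libraries of 1 genotype.

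Germ cell and somatic isoforms were then compared within each library, as the log2 ratio of their values, which needs no scaling between libraries. In 6 of the 7 pairs the ratio had a lower mean in SKO. The groups did not overlap in 3 pairs, each with an exact permutation p of 0.0286, two-sided, the smallest that 70 assignments of the libraries can give. None of the 7 passed at 0.05 after adjustment over the pairs (adjusted p = 0.0667 for those 3). With that smallest p, 3 separated pairs of the 7 could not have passed. The lack of a pass therefore does not show equal ratios. The ratio of Pdha2 to Pdha1 was 4.94, 5.08, 5.75 and 4.55 across CTL 1 to 4, against 4.06, 3.39, 3.68 and 4.45 across SKO 1 to 4, a difference of -1.18 ± 0.34 (SE). Pgam2 to Pgam1 differed by -0.95 ± 0.33, with CTL 4 at 2.19 next to SKO 1 at 2.18. Eno4 to Eno1 had the tightest values, -2.74 to -2.60 in CTL and -3.17 to -2.90 in SKO, a difference of -0.39 ± 0.07. Sertoli and pachytene marker sums, given beside the single genes, also separate the genotypes, and their part in these ratios was not tested.

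In the other pairs the libraries of the genotypes overlapped, and the values of Gapdh, Pgk1, Eno1 and Pgam1 carry the uncertainty of shared sequence given with those genes. Gapdhs to Gapdh differed by -1.49 ± 0.70 (SE; exact permutation p = 0.114, adjusted p = 0.2), Aldoart1 to Aldoa by -0.63 ± 0.37 (exact permutation p = 0.143, adjusted p = 0.2) and Pgk2 to Pgk1 by -0.62 ± 0.63 (exact permutation p = 0.314, adjusted p = 0.367). Ldhc to Ldha differed the other way, by 0.18 ± 0.20 (exact permutation p = 0.371, adjusted p = 0.371), and by -0.10 within the 5 libraries with a lower 18S share. Within the 3 libraries with a higher 18S share, SKO 4 against CTL 3 and CTL 4, the differences of Pgam2 to Pgam1, Eno4 to Eno1 and Pdha2 to Pdha1 were -0.32, -0.29 and -0.70.

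**Figure D4:**
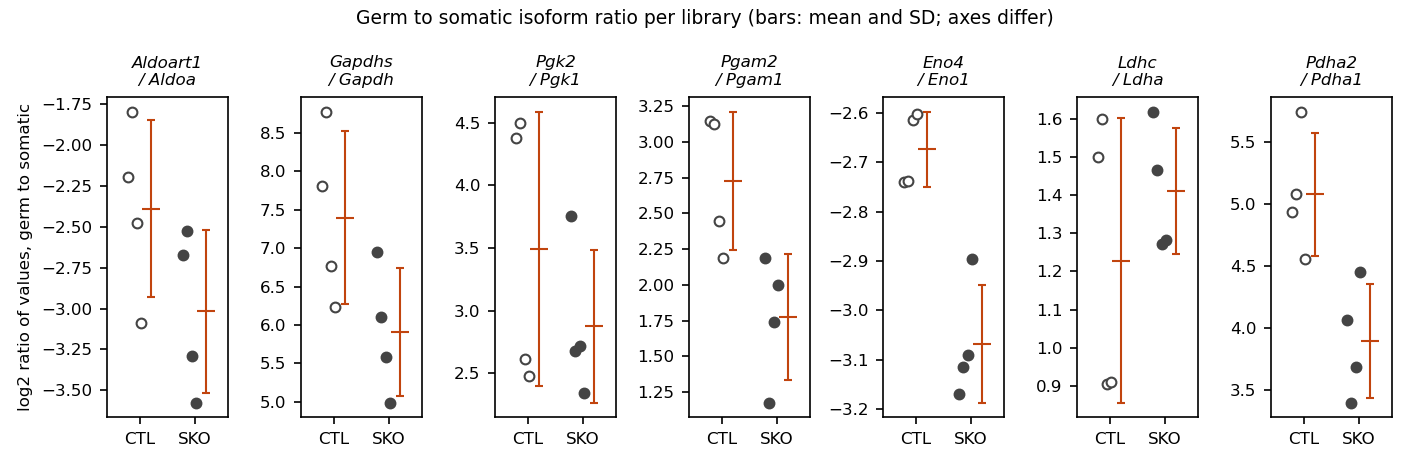
Log2 ratio of the germ cell isoform to the somatic isoform in 7 pairs, with 1 point per library, bars for the mean and SD (n = 4), and a y axis of its own for each pair. The Pdha2, Pgam2 and Eno4 pairs separate the genotypes and the 4 others overlap.

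Sugar enters through the glucose transporters. Slc2a3 at chr6:122727809-122801640 encodes GLUT3, a transporter of high glucose affinity found in germ cells. Its values were 217830.0, 201309.8, 242634 and 252964 across CTL 1 to 4, against 105443, 123959.6, 156156 and 109796 across SKO 1 to 4. SKO lay below CTL without overlap, with means of 228684 ± 23461 and 123839 ± 22949 (SD, n = 4) and a log2 fold change of -0.90 ± 0.17 (SE), adjusted p = 0.0137. Slc2a1, which encodes GLUT1, the transporter of Sertoli and blood-barrier cells, went the other way. Its values were 1021, 976, 1332 and 1082 across CTL 1 to 4, against 1737, 1803, 2104 and 1815 across SKO 1 to 4. The groups did not overlap, with a log2 fold change of 0.76 ± 0.15 (SE), adjusted p = 0.0147. Slc2a3 was the more abundant per kb of exon, with CTL means of 31564 and 315 normalised units per kb for Slc2a3 and Slc2a1.

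Among the monocarboxylate transporters Slc16a1 (MCT1) had values of 6090.4, 5900.0, 4895 and 4999 across CTL 1 to 4, against 8872, 9989, 8955 and 7249.7 across SKO 1 to 4 and rose without overlap, with a log2 fold change of 0.68 ± 0.14 (SE), adjusted p = 0.0168. Slc16a7 encodes MCT2, a carrier of high lactate affinity, and had 30196 to 54942 in CTL and 19683 to 30051 in SKO. Its groups did not overlap, yet its log2 fold change of -0.63 did not pass (adjusted p = 0.0572). It passed with median-ratio factors (adjusted p = 0.0412), the 18S set as covariate (0.0231), in the lower 18S libraries (0.031) and without CTL 4 (0.0361). Slc16a3, which encodes the exporter MCT4, did not pass either, at 0.35 (adjusted p = 0.115).

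Glucose is trapped by hexokinase and committed to glycolysis by phosphofructokinase, whose 3 genes did not move together. Hk1 had 59379 to 133448 in CTL and 41801 to 74547 in SKO, and its log2 fold change of -0.83 did not pass (adjusted p = 0.0545). It passed with median-ratio factors (adjusted p = 0.0403), the 18S set as covariate (0.0131), in the lower 18S libraries (0.0217) and without CTL 4 (0.0191). Hk2 was at 0.42 (adjusted p = 0.238). Pfkp, the platelet type, had values of 20900.1, 20886, 30305 and 28578 across CTL 1 to 4, against 12846, 13314, 14332 and 15468 across SKO 1 to 4. Every SKO library was below every CTL library, with a log2 fold change of -0.83 ± 0.16 (SE), adjusted p = 0.0147. Pfkm, the muscle type, had values of 17160.1, 18143, 21954 and 18243 across CTL 1 to 4, against 11816, 11838, 12498 and 10394 across SKO 1 to 4, also without overlap, with a log2 fold change of -0.69 ± 0.13 (SE), adjusted p = 0.0137. Pfkl, the liver type, had values of 3184, 2895, 3012 and 2653 across CTL 1 to 4, against 4471, 5109, 5654 and 3353 across SKO 1 to 4. It lay higher in SKO without overlap, with a log2 fold change of 0.64 ± 0.17 (SE), adjusted p = 0.0326. This rise passed in 1 of the 8 fits that leave out a library, the one without SKO 4, and in the others the adjusted p was 0.0516 to 0.103. Pfkp and Pfkm were also higher than Pfkl per kb of exon in CTL, at 1878, 5651 and 439.8 normalised units per kb. Part of the exon length of Pfkm (10.7%) and Pfkp (5.58%) overlaps other annotated genes. Of the windows of 50 bases in the Pfkp transcript 17.1% also occur in Pitrm1, so its value carries some uncertainty.

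The other enzymes before the triose phosphates did not pass. Gpi1 (glucose 6-phosphate isomerase) was at -0.23 (adjusted p = 0.677), Aldoa and Aldoc (aldolases) at 0.29 and 0.41 (adjusted p = 0.418 and 0.264), and Tpi1 (triose phosphate isomerase) at -0.37 (adjusted p = 0.243). The sign for Gpi1 turned to 0.06 with library totals and to 0.27 without CTL 1 and CTL 2. Windows of 50 bases shared with other genes make up 25.3% of the Gpi1 transcript, so its value carries some uncertainty. Aldoa turned to -0.07 within the libraries with a lower 18S share, and Aldoc to -0.15 within those with a higher one.

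In the later steps Gapdh and Pgam1 rose. Gapdh, the somatic glyceraldehyde 3-phosphate dehydrogenase, had values of 163, 109.7, 109 and 54.8 across CTL 1 to 4, against 297, 209, 255 and 301 across SKO 1 to 4. These are low, 27 to 214 reads in the 6 libraries with a factor and the lowest of the 34 members per kb of exon, and 82.5% of the windows of 50 bases in its transcript also occur in other annotated genes, 222 of them. In the lower 18S libraries it missed the threshold (adjusted p = 0.0531). Reads from those windows may have been left out of its value, so the level and the rise, a log2 fold change of 1.32 ± 0.33 (SE), adjusted p = 0.024, are uncertain. Pgam1, the somatic phosphoglycerate mutase, had values of 6579, 6579, 5245 and 4314 across CTL 1 to 4, against 10456, 10745, 9897 and 8009.9 across SKO 1 to 4. The groups did not overlap, with a log2 fold change of 0.80 ± 0.17 (SE), adjusted p = 0.0178, and 41.5% of its windows are shared with other genes. Pgk1, the X-linked phosphoglycerate kinase, had 2489.6 to 2718 in CTL and 2754 to 3952 in SKO, and did not pass at 0.36 (adjusted p = 0.097), although the groups did not overlap. It shares 68.0% of its windows, Pgk1-rs7 among the genes that hold them. Eno1 (enolase) at -0.15 and Pkm (pyruvate kinase) at 0.39 did not pass (adjusted p = 0.525 and 0.112). Eno1 shares 72.2% of its windows and Pkm 34.4%. The sign of Eno1 turned to 0.14 with library totals.

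Lactate dehydrogenase turns pyruvate into lactate and back. Ldha at chr7:46841475-46855627, the subunit of tissues that make lactate, had values of 120773, 122377, 112986 and 98956 across CTL 1 to 4, against 83300.0, 69419.8, 81413 and 71109 across SKO 1 to 4. It fell without overlap, with a log2 fold change of -0.58 ± 0.14 (SE), adjusted p = 0.023, and did not pass with library totals (adjusted p = 0.179). Windows of 50 bases shared with other genes make up 17.1% of the Ldha transcript and 27.0% of that of Ldhb, so both values carry some uncertainty. Ldhb, the subunit of tissues that use lactate, moved in the other direction. Its values were 11869, 11742, 5255 and 4966 across CTL 1 to 4, against 23128, 20762, 22739.6 and 11021 across SKO 1 to 4. CTL 3 and CTL 4 were low and SKO 4 was below CTL 1 and CTL 2, so the groups overlapped, with a log2 fold change of 1.26 ± 0.36 (SE), adjusted p = 0.0365. Ldha lies next to Ldhc on chromosome 7, and Ldhc, as above, did not pass. Per kb of exon Ldhc was the highest of the 34 members in CTL, at 175654 normalised units, with Ldha at 34373.

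Of the pyruvate dehydrogenase genes, Dlat and Pdha2 fell. Dlat encodes the acetyltransferase core of the complex and had values of 16779, 17628, 28559 and 23732 across CTL 1 to 4, against 11872, 14659, 14285 and 14922 across SKO 1 to 4. The groups did not overlap, with a log2 fold change of -0.61 ± 0.19 (SE), adjusted p = 0.0479. The call is as weak as that of Pdha2: it passed in 2 of the 8 fits that leave out a library, and missed with upper quartile factors (adjusted p = 0.052), 1 prior variance (0.0637), library totals (0.151) and in the lower 18S libraries (0.0666). Pdha1, the X-linked partner of Pdha2, had 512 to 955 in CTL and 827 to 1296 in SKO and a fold change of 0.63 (adjusted p = 0.0751); 16.1% of its exon length overlaps Map3k15. Pdhb, the beta subunit, was at -0.07 (adjusted p = 0.783), and above 0 with library totals, at 0.22. Sord, the sorbitol dehydrogenase that makes fructose, was among the most abundant members, at 47842 normalised units per kb in CTL. Its fold change of -0.55 did not pass (adjusted p = 0.229). Windows of 50 bases shared with other genes make up 31.3% of the Sord transcript and 30.3% of that of Pdhb, so both values carry some uncertainty.

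**Figure D5:**
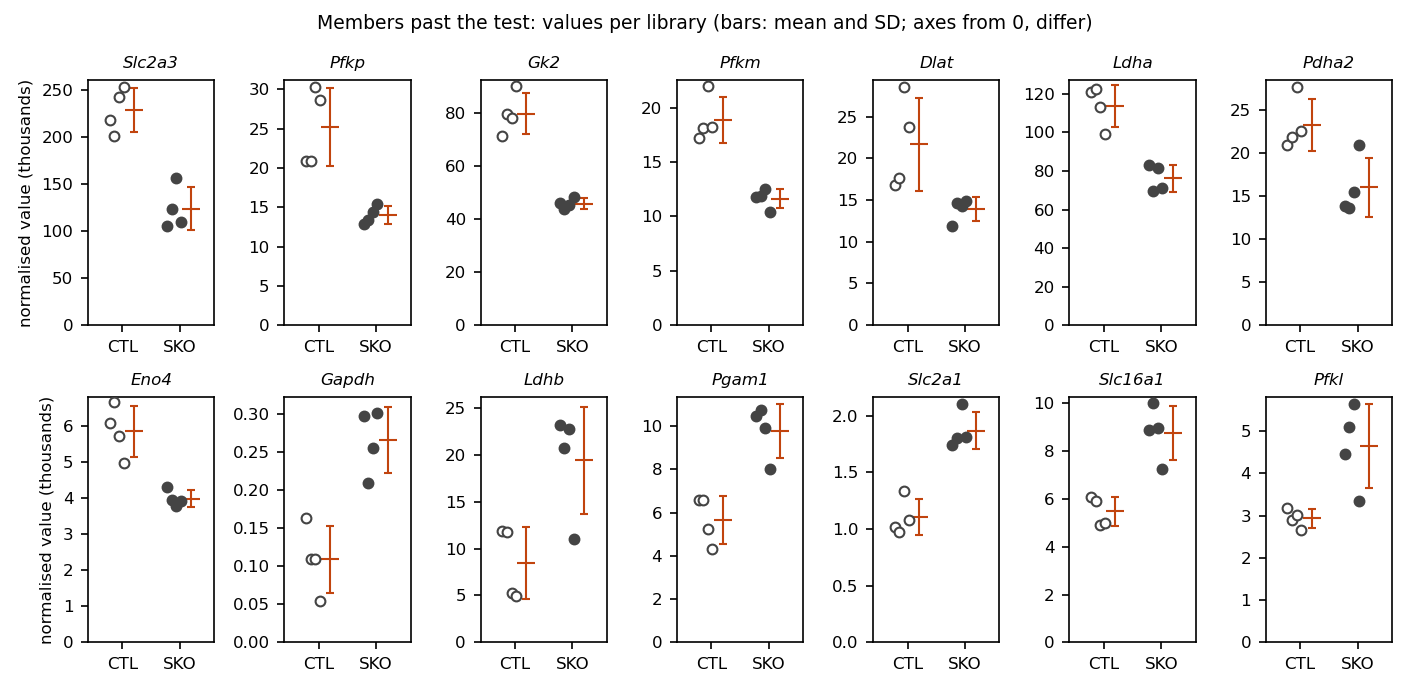
Normalised value (y axis, with the multiplier given in its label) of the 14 members that passed the test, with 1 point per library, bars for the mean and SD (n = 4), and y axes that start at 0 and differ between genes. The genotypes overlap for Ldhb and Pdha2 and are apart for the 12 others.

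As a group, markers of Sertoli cells were also higher in SKO. 17 of 22 Sertoli cell markers rose and none fell, with a median log2 fold change of 0.98, and their sum was 122187 to 239906 in CTL and 265722 to 468766 in SKO. That sum was lowest in CTL 3 and CTL 4 and, among the SKO libraries, lowest in SKO 4. It is weighted to abundant markers such as Clu, which had 100467 in CTL 1, 24239 in CTL 3 and 74721 in SKO 4. Clu did not pass in limma (adjusted p = 0.0651). Other Sertoli markers, such as Sox9 at 11200 and Vim at 34865, were highest in SKO 4. Also risen were 5 of 12 spermatogonial markers and 3 of 5 peritubular myoid markers, whose sums did not overlap either. Of the Leydig and macrophage markers 1 of 8 and 1 of 9 rose, near the 11.9% over all genes, and their sums overlapped. The Leydig median was -0.05. The macrophage median was 0.63, with a lowest log2 fold change of 0.09. It was beside 0.62 for the spermatogonial and 0.58 for the peritubular myoid markers. 1 of 3 muscle markers rose and 1 of 5 red blood cell markers fell. Every gene with a row reached at least 95 in some library, so no marker with a row could be at 0 throughout. The part of these markers in the rise of Gapdh, Ldhb, Pgam1, Slc2a1, Slc16a1 and Pfkl was not tested.

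Other genes of sugar metabolism were taken from 2 lists. Of 39 other glycolysis and sugar genes listed 33 were tested, of which 9 rose and 1 fell, with a median log2 fold change of 0.04; 30.3% of them passed, beside 19.9% over all genes. The largest rises by log2 fold change were those of Khk (fructokinase, 0.97), Taldo1 (transaldolase, 0.92), G6pdx (glucose 6-phosphate dehydrogenase, 0.85), Adpgk (ADP-dependent glucokinase, 0.80) and Pgm3 (phosphoacetylglucosamine mutase, 0.71). Pfkfb4, a regulator of phosphofructokinase found in testis, was the gene that fell (-0.77, adjusted p = 0.0218). Of 39 other transport, lactate and pyruvate genes listed 34 were tested, of which 6 rose and 2 fell, with a median of 0.36; the 23.5% that passed is close to the 19.9% over all genes. The risen genes included the glucose transporters Slc2a4 (0.92) and Slc2a12 (0.83), the pyruvate dehydrogenase kinase Pdk1 (0.82), the mitochondrial phosphoenolpyruvate carboxykinase Pck2 (0.75) and the citrate carrier Slc25a1 (0.64). Both genes that fell are sugar transporters, as Slc2a3 is. Slc2a5, the fructose transporter GLUT5, had values of 83539, 90794, 99444 and 91340.3 across CTL 1 to 4, against 49783, 49868, 47809.6 and 45139.9 across SKO 1 to 4. It fell without overlap, with a log2 fold change of -0.92 ± 0.12 (SE), adjusted p = 0.0123. Slc2a8 (GLUT8) fell by 0.73 on the log2 scale (adjusted p = 0.0219).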

How the data were processed

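RNA from 8 mouse testis libraries was sequenced from NEBNext Ultra libraries, per the labels' protocols, and the submitters' processing notes name featureCounts 1.5.0-p3, HISAT2 2.0.5, fastp and CASAVA, with the build mm10. The authors deposited 1 table with a whole-number value per gene and library, treated here as a score. In 6 libraries the values are rounded products of read counts and 1 factor for the library. In these, 99.3% to 100% of values up to 1000 matched after exact rounding. In CTL 1 and CTL 2 no factor above 1 was found, and the search could not find a factor of 1 or below. The sources used here do not give the scaling, so no count model was run. How reads matching several genes, or the strand, were treated is not given either.

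Values were normalised with TMM factors (log-ratio trim 30%, level trim 5%), log2-transformed after adding 5, and tested with limma 3.58.1 in R 4.3.3, variances following the mean, over the 17066 genes that reached 25 in 4 or more libraries. Fold changes are on that log2 scale, which understates low genes. All 8 libraries entered, 4 per genotype, with no covariate. Isoform ratios were tested by exact permutation. Gene models and sequences came from GENCODE and RefSeq on GRCm38, coding alignments from Biopython 1.88, and shared sequence was searched as exact windows of 50 bases. The scripts were tested on simulated data.

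Named were all 34 members, the targeted gene, up to 5 risen and 5 fallen genes of each of the 2 pathway lists by size of change, and up to 2 markers of a cell type by level. Members and lists were chosen with earlier results of these data known. Alternatives were other scalings, added constants, filters and variance models, a replicate block, the 18S library sets and each library left out; ratios within the higher 18S libraries were added after seeing the data.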

Additional observations from a re-analysis of the deposited data

Results flagged for a closer look

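Of 82 groups of 4 libraries checked, 1 held a library far from the others, where chance gives about 1 in 20. Gpi1, glucose 6-phosphate isomerase, had a value of 28013 in SKO 1 against 13994 to 14596 in the other SKO libraries.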

How the results depend on the processing

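Genes risen and fallen over the table numbered 2038 and 1354. They numbered 4885 and 456 with library totals (members 11 and 4, somatic median 0.58), 3202 and 2291 in the 5 lower 18S libraries (13 members fallen, somatic median -0.073) and 35 and 231 in the 3 higher ones (members 0 and 1, somatic median 0.021), which hold 1 SKO library assumed to vary like the CTL libraries. With the 18S set as covariate 2210 genes and 13 members fell and the somatic median was 0.14, and without CTL 1 and CTL 2 2326 genes fell. Leaving out 1 library gave 0 to 2451 genes risen, 0 to 1525 fallen, 0 to 7 members risen, 0 to 8 fallen and somatic medians of 0.070 to 0.35. Dropping CTL 2 left 1108 genes risen. Risen and fallen were 686 and 542 after dropping CTL 3, 812 and 468 after SKO 1, 823 and 503 after SKO 2, and 0 and 0 after SKO 3.

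Signs turned for members that had not passed. With library totals Gpi1 was at 0.064, Aldoart2 0.13, Gapdhs 0.13, Pgk2 0.030, Pgam2 0.13, Eno1 0.14 and Pdhb 0.22. Aldoa was at -0.073 in the lower 18S set, and in the higher set Gpi1 was at 0.11, Aldoart2 0.19, Aldoc -0.15, Gapdhs 0.38 and Pgam2 0.44. Without CTL 1 and CTL 2, Hk2 was at -0.054, Gpi1 0.27, Aldoart1 0.42, Aldoart2 0.90, Gapdhs 1.05, Pgk2 0.65, Pgam2 0.43 and Pdhb 0.061. Leaving out 1 library at a time, the range was -0.77 to 0.23 for Aldoart2, -0.86 to 0.28 for Gapdhs, -0.63 to 0.056 for Pgk2, -0.49 to 0.013 for Pgam2 and -0.20 to 0.020 for Pdhb.

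The ratio of Pgam2 to Pgam1 differed by -1.44 in the lower 18S set, and in the higher set it differed by -0.32, Eno4 to Eno1 by -0.29 and Pdha2 to Pdha1 by -0.70. Ldhc to Ldha was at -0.10 in the lower 18S set. With Ldhb as the partner in place of Ldha, and all libraries kept, the difference was -1.66. The planned Eno2 partner was not run, since Eno2 was not in the table used. The cause of these changes was not tested.

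Libraries of the same number correlated at 0.673, 0.0119, 0.082 and 0.231 in their deviations, so the numbers were not taken as pairs. Members risen and fallen were 6 and 6 with upper quartile factors and with 1 prior variance for all genes. Of the 20 members that had not passed, 12 passed in at least 1 alternative. A replicate block gave 2162 genes risen and 1701 fallen, and 6 and 10 members, with Hk1 (adjusted p = 0.0243) and Slc16a7 (0.0397) now past the threshold.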

Other observations

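The pentose phosphate pathway leaves glycolysis at glucose 6-phosphate and makes NADPH and ribose. Its 9 genes were picked from the sugar gene list after the values were seen: 3 rose, 0 fell and 6 did not pass in limma, with a median log2 fold change of 0.41. Over all genes tested 11.9% rose and 7.93% fell, with a median of 0.04. G6pdx, the X-linked glucose 6-phosphate dehydrogenase, had values of 1456, 1528, 1451 and 1371 across CTL 1 to 4, against 2678, 2720.3, 2644 and 2425 across SKO 1 to 4, without overlap (log2 fold change 0.85, adjusted p = 0.0123). G6pd2, its autosomal retrogene in germ cells, had values of 3859, 5165, 3606 and 1832 across CTL 1 to 4, against 3524, 3035, 1586 and 2201 across SKO 1 to 4, with a log2 fold change of -0.45 (adjusted p = 0.361). Pgd, the next dehydrogenase, rose by 0.59 on the log2 scale, and the transketolase-like Tktl2 was at -0.39 (adjusted p = 0.289). Whether the ratio of G6pd2 to G6pdx differs between the genotypes was not tested.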
